A study of Mus musculus with 8 samples.

Results

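The 80 genes described here are weakly expressed in the mouse heart and were higher in every DAPA library than in any vehicle library. They were chosen from the deposited values themselves, in 3 steps. Of 22173 genes in the table, 2301 had a mean of 0.15 to below 1 FPKM over the 4 DAPA libraries. FPKM is fragments per kilobase of gene model, scaled to the fragments of the library, so that the level is already divided by gene length. Of these genes, 185 had a DAPA mean at least 2 times the vehicle mean, and 93 of those had their lowest DAPA value above their highest vehicle value. Leaving out 13 predicted genes, RIKEN clones and members of large families of transporters, channels, cytokines and growth factors left 80 genes. The same steps with the groups exchanged left 41 genes. Above the range, at a DAPA mean of 1 FPKM or more, 66 genes met the other conditions.

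Cardiac tissue came from C57BL/6J mice whose left anterior descending coronary artery had been tied, an operation that causes a myocardial infarct. The labels divide 8 libraries into 4 vehicle libraries, named MI in their titles, and 4 libraries from mice given DAPA at 1 mg per kg per day for 4 weeks after the operation. The series title places DAPA among the inhibitors of the sodium-glucose cotransporter SGLT2, which carries glucose back from the urine in the kidney. The composition of the vehicle, the age and sex of the mice, the part of the heart taken and the hour of sampling are not stated in the labels. No label says whether each library came from a separate animal, so p-values measure the spread between these libraries, which may be technical. No unoperated hearts were analysed here, so the operation itself cannot be read from these values.

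A gene with few transcripts in whole cardiac tissue can be faintly active in many cells or strongly active in a few. Genes of small cell populations, such as atrial muscle, endocardium, nerve and the outer lining of the heart, therefore often stand among the weakly expressed genes of a heart. So do genes of tissues that lie next to the heart, such as skeletal muscle, lung and fat. In bulk samples, fewer cells of a type and less RNA per cell cannot be told apart.

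Depth was even across the libraries, with 24990393 to 26823456 reads behind the FPKM values. For a gene model of 1 kilobase, 1 read was worth 0.0373 to 0.040 FPKM. The number of genes above 0 was 15706 ± 20.02 (SD, n = 4) in vehicle and 15778 ± 22.2 in DAPA libraries. In an exact permutation test, two-sided, p was 0.0286, the smallest that 70 assignments allow. The 8 ventricular muscle markers examined were all present. Their sum lay between 17489 and 17724 FPKM in vehicle and between 15895 and 17077 FPKM in DAPA libraries. Of the 8, 2 were called higher and 2 lower at an adjusted p below 0.05 in the limma-trend fit described with the ratios. That fit called 7.78% of all genes tested higher and 6.73% lower. Markers of atrial muscle summed to 8176 to 9113 FPKM in vehicle and to 12963 to 13668 FPKM in DAPA libraries. In the same fit, 12 of 15 were called higher and 1 lower. Nppa made up most of both sums, with means of 8481 FPKM in vehicle and 12070 FPKM in DAPA libraries. Myl7 had means of 1.34 and 603 FPKM in vehicle and DAPA libraries, and Sln 0.278 and 312 FPKM. Kcna5, the marker called lower, had 23.4 and 12.2 FPKM. Markers of the epicardium and mesothelium, the outer lining, summed to 63.3 to 88.7 FPKM in vehicle and to 103 to 123 FPKM in DAPA libraries, with 8 of 17 called higher and 0 lower (0 at an unadjusted p below 0.05, and 0 by limma voom). The part of these shifts in the values of the 80 genes was not tested.

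Added together, the 80 genes gave 8.82, 9.07, 9.81 and 9.33 FPKM in vehicle libraries 1 to 4 and 34.9, 29.97, 35.0 and 31.9 FPKM in DAPA libraries 1 to 4. In reads, these sums were 1126, 1154, 1115 and 1194 in vehicle and 3921, 3529, 3763 and 3647 in DAPA libraries. DAPA 1 held the highest DAPA value for 29 of the 80 genes, DAPA 3 for 21, DAPA 4 for 18 and DAPA 2 for 12. All 80 genes had reads in each DAPA library, which the rule fixes, while 67 to 73 of them had reads in a given vehicle library.

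**Figure D1:**
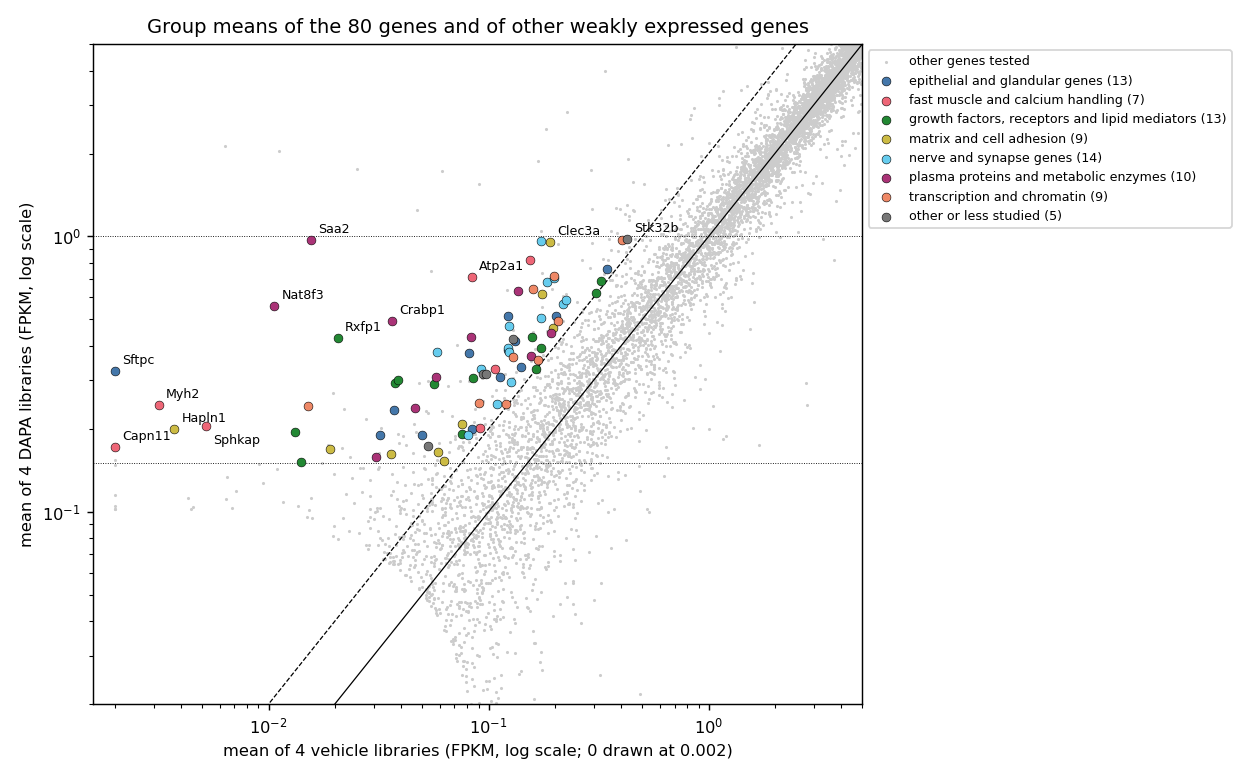
Mean FPKM of the 4 vehicle libraries (x axis, log scale) and of the 4 DAPA libraries (y axis, log scale) for the 80 genes, coloured by role, and for the other genes tested (grey). The solid line marks equal means, the dashed line a ratio of 2 and the dotted lines 0.15 and 1 FPKM. Among those of the 80 with a vehicle mean above 0, Myh2, Hapln1, Sphkap and Nat8f3 lie farthest to the left.

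The ratio of DAPA to vehicle means ran from 2.01 for Erbb4 to 77.0 for Myh2, with a median of 3.44. It was at least 10 for 12 genes, counting Capn11 and Sftpc, which had 0 reads in all vehicle libraries, and under 3 for 31 genes. These values chose the genes and are given as a description. In the limma-trend fit of log2(FPKM + 0.1) over 14749 genes, 65 of the 80 were called higher at a Benjamini-Hochberg adjusted p below 0.05 and 0 lower. Of all genes tested, 7.78% were called higher and 6.73% lower. Among the 2408 tested genes whose mean over all libraries lay in the range of the 80, 4.65% were called higher, and 7.23% had all DAPA libraries above all vehicle libraries, against 10.8% of all genes tested. In the opposite direction these shares of the 2408 genes were 3.07% and 4.28%. Because the rule used this contrast, nothing is read from the count of 65. The authors' deposited table gives a q-value below 0.05 for 71 of the 80 genes, against 8.76% of its genes with a q-value below 0.05 and a ratio above 1. Its fold changes for the 80 run from 2.0 to 77.1, with a median of 3.42.

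Many of these genes rest on few reads. The 80 genes had 26 to 1435 reads over the 4 DAPA libraries (median 129.5) and 0 to 417 over the 4 vehicle libraries (median 37.5), and 29 genes had under 100 DAPA reads. The 95% interval of the ratio of reads, which covers counting error only, lay wholly above 2 for 49 genes. Within the DAPA group, the highest library exceeded the lowest by 1.83 times in the median gene and by over 3 times in 13 genes. Those 13 were Atp2a1, Coch, Dcstamp, Gata3, Gdf7, Gpr37l1, Hapln1, Mup14, Myh2, Nat8f3, Saa2, Sftpc and Tnnc2. Leaving out each library in turn moved the ratio of 14 genes by over 1.5 times, which is given for those described singly, and the lowest ratio so reached for any of the 80 was 1.69.

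**Figure D2:**
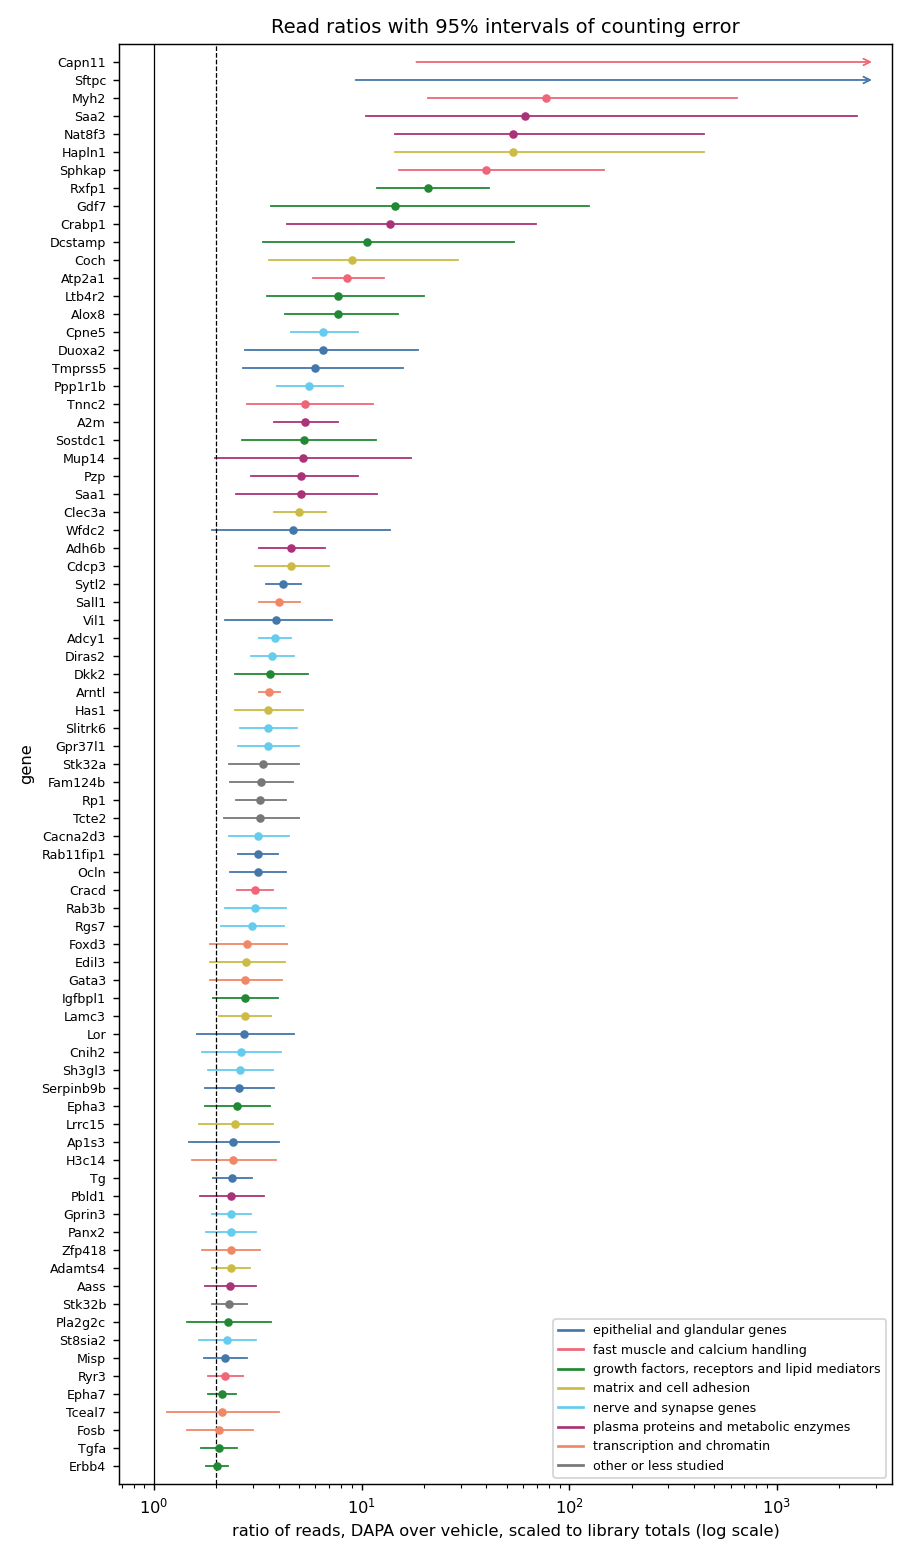
Ratio of reads in DAPA to reads in vehicle libraries, scaled to library totals (x axis, log scale), for 79 of the 80 genes, with lines for the 95% interval of counting error; the dashed line marks a ratio of 2. The intervals of Arntl (3.22 to 4.03) and Erbb4 (1.79 to 2.27) are narrow, that of Saa2 (10.5 to 2449) is wide, and the arrows of Capn11 and Sftpc start at the fold against a floor of 3 reads.

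Gene length decides what weak expression means here. The gene models of the 80 ran from 609 to 24355 bases, with a median of 3378, as computed from the size of 1 read in FPKM. The 8 models over 10000 bases gave low FPKM from many reads. Arntl had 399 reads in vehicle and 1435 in DAPA libraries over a model of 19267 bases, and Erbb4 had 417 and 840 over 24355 bases. In the 7 models shorter than 1000 bases, a like FPKM came from few reads. Tnnc2, for example, had 11 reads in vehicle and 59 in DAPA libraries, and Saa2 had 1 and 61.

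The 80 genes were sorted by known function into 8 role groups, and the median ratio was highest for genes of fast muscle and calcium handling (8.52, 7 genes) and for plasma proteins and metabolic enzymes (5.18, 10 genes). It was 3.60 for growth factors, receptors and lipid mediators (13 genes), 3.53 for matrix and adhesion genes (9), 3.16 for epithelial and glandular genes (13), 3.13 for nerve and synapse genes (14) and 2.74 for transcription and chromatin genes (9). The remaining 5 genes had a median of 3.27.

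**Figure D3:**
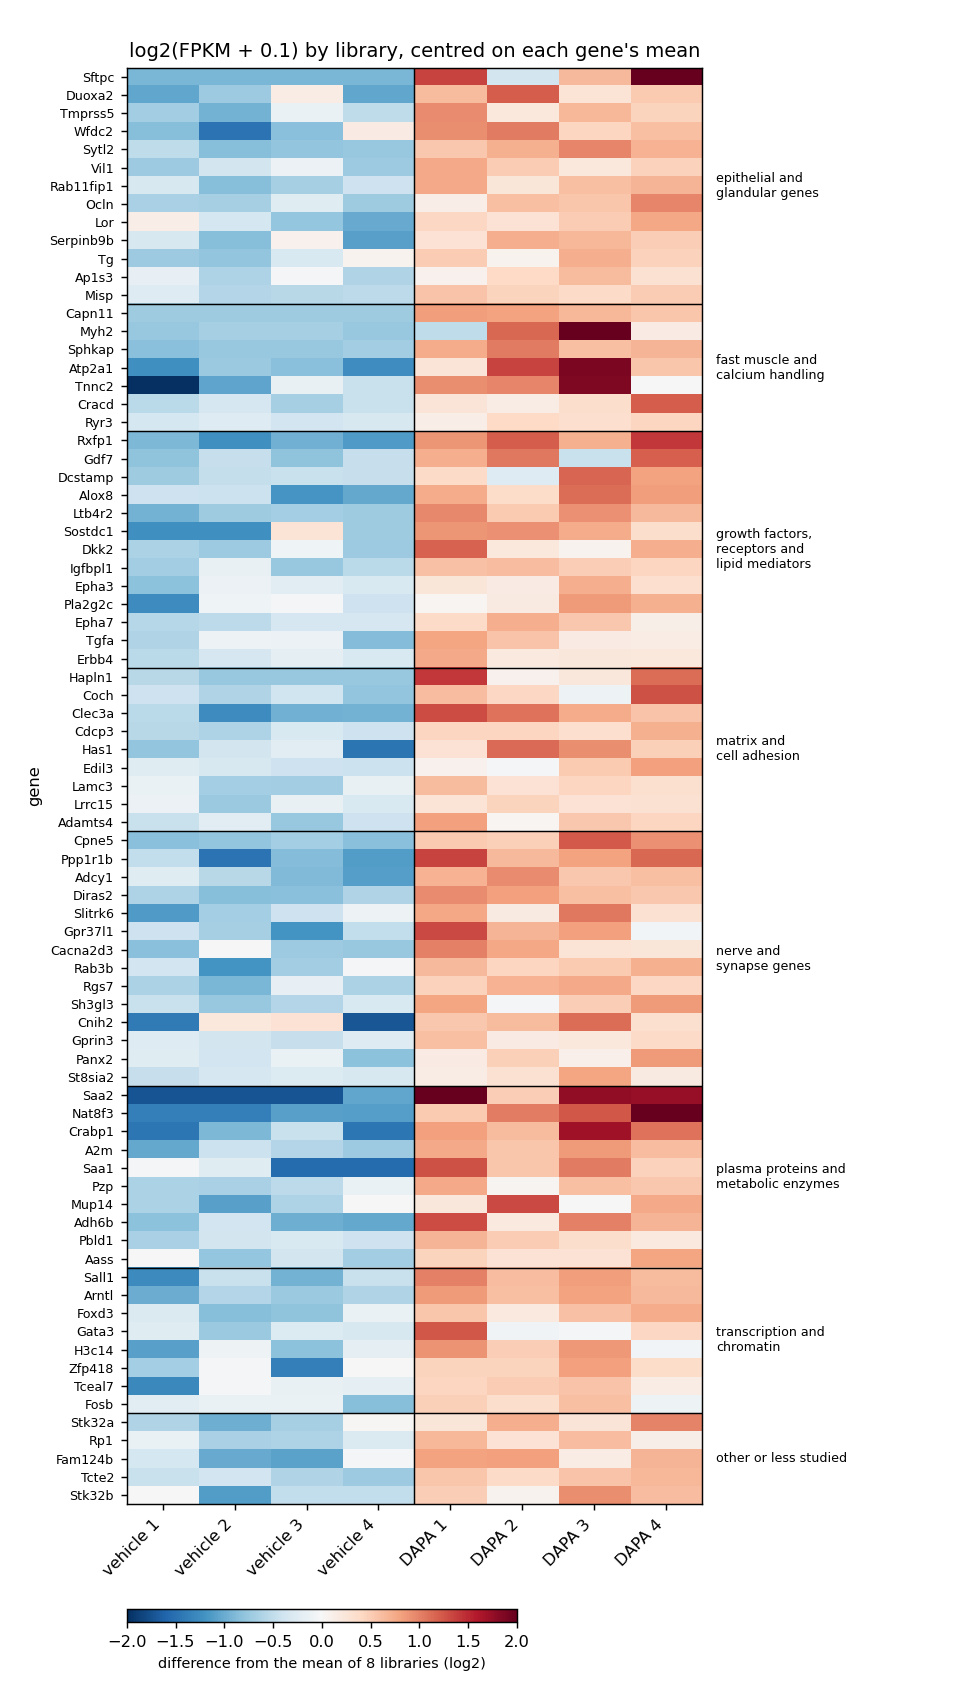
log2(FPKM + 0.1) of 79 of the 80 genes (rows, grouped by role) in the 8 libraries (columns), centred on the gene's mean over all libraries; red is above and blue below that mean. Vehicle columns are mostly blue and DAPA columns mostly red, with single libraries standing out for Myh2 and Atp2a1 (DAPA 3) and for Sftpc and Nat8f3 (DAPA 4), and high values in both DAPA 1 and DAPA 4 for Hapln1.

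Of the 7 genes of fast muscle and calcium handling, 3 encode the contractile and calcium-pumping proteins of fast skeletal muscle. Myh2, the myosin heavy chain of fast oxidative fibres, measured 0, 0.00613, 0.00658 and 0 FPKM in vehicle libraries 1 to 4 and 0.019, 0.276, 0.595 and 0.0884 FPKM in DAPA libraries 1 to 4. Atp2a1, the calcium pump SERCA1 of fast fibres, measured 0.0558, 0.119, 0.105 and 0.0551 FPKM in vehicle and 0.336, 0.835, 1.25 and 0.435 FPKM in DAPA libraries, in the same order. Tnnc2, the calcium sensor of the fast troponin complex, measured 0, 0.108, 0.289 and 0.219 FPKM in vehicle and 0.723, 0.754, 1.48 and 0.333 FPKM in DAPA libraries. DAPA 3 was the highest library for all 3 genes, and the lowest was DAPA 1 for Myh2 and Atp2a1 and DAPA 4 for Tnnc2. The ratio of means was 77.0 for Myh2, from 2 vehicle reads against 154 DAPA reads with a counting interval of 21.0 to 642, 8.52 for Atp2a1 and 5.34 for Tnnc2. Without DAPA 3 the ratio of Myh2 was 40.2, and without vehicle 3 it was 119.7.

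Other skeletal muscle genes were examined in the same libraries. Over all genes tested, 7.78% were called higher and 6.73% lower. Of 9 further genes of a skeletal muscle list with enough signal to be tested, 4 were called higher and 0 lower. These were Myh1, a fast myosin heavy chain whose gene lies within 5 kb of Myh2 (log2 change 1.15 ± 0.34, SE, limma-trend adjusted p = 0.0398), Myh8, the perinatal myosin heavy chain, Tnnt3, fast troponin T, and Pvalb, the calcium buffer of fast fibres. Myh1 measured 0.00636, 0.0618, 0.00663 and 0 FPKM in vehicle and 0.0511, 0.210, 0.306 and 0.134 FPKM in DAPA libraries. In the lower direction, 0 of the 9 had an unadjusted p below 0.05 and 0 were called by limma voom, which called 5 higher. DAPA 3 was also the highest library for Myh1, Tnnt3 and Pvalb, while DAPA 4 was for Myh8. Mybpc2, a fast myosin binding protein, measured 4.21 to 5.18 FPKM in vehicle and 4.02 to 5.31 FPKM in DAPA libraries, and its groups overlapped. The 18 genes of the list, with Myh2, Atp2a1 and Tnnc2 among them, summed to 9.70 to 12.7 FPKM in vehicle and to 13.8 to 23.0 FPKM in DAPA libraries. Myf5, which marks muscle precursors, was at 0 in all libraries. Myod1 and Myog were at 0 in vehicle and at most 0.0621 and 0.0259 FPKM in DAPA libraries. Myf6 and Pax7 reached 0.0638 and 0.00704 FPKM in vehicle and 0.0297 and 0.00725 FPKM in DAPA libraries. All of these were too weak to be tested. The part of skeletal muscle RNA in the values of Myh2, Atp2a1 and Tnnc2 was not tested.

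**Figure D4:**
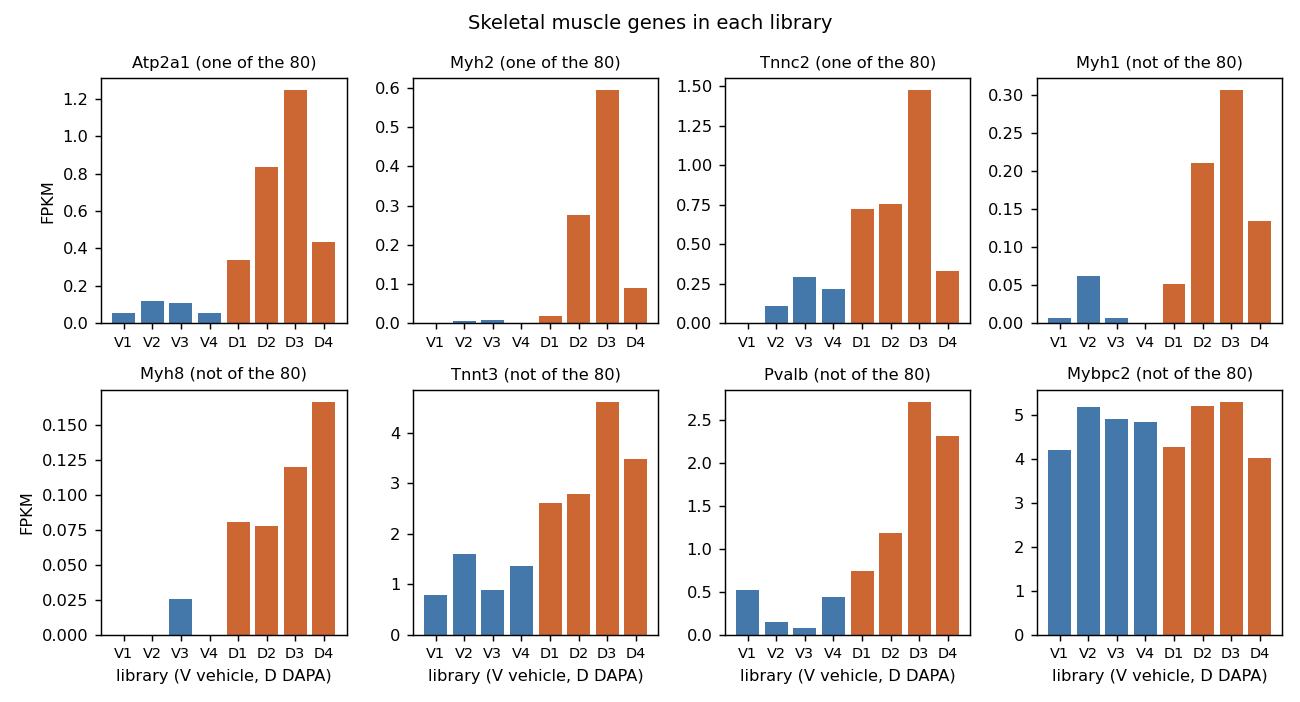
FPKM (y axis, starting at 0, own scale in each panel) in vehicle libraries V1 to V4 (blue) and DAPA libraries D1 to D4 (orange) for 3 of the 80 genes and 5 other skeletal muscle genes. The tallest bar is D3 for Atp2a1, Myh2, Tnnc2, Myh1, Tnnt3 and Pvalb and D4 for Myh8, while the bars of Mybpc2 overlap between groups.

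The promoters of Atp2a1 and Tnnc2 are shown because both genes were highest in the same DAPA library. Each runs from 250 bases before the gene's start to 50 after it, on the gene's strand, in RefSeq's mouse build GRCm38.p6. Atp2a1 lies at chr7:126463024-126463323 on the minus strand and Tnnc2 at chr2:164779685-164779984 on the minus strand. Capitals mark E-boxes, CANNTG with N for any base, the motif bound by MyoD and related factors.
Atp2a1: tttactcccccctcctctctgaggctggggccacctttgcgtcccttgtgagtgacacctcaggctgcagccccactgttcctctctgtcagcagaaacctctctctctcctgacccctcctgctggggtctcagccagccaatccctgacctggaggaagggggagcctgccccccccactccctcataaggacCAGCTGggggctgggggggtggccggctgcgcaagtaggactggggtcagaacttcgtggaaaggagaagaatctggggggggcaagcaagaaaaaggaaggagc
Tnnc2: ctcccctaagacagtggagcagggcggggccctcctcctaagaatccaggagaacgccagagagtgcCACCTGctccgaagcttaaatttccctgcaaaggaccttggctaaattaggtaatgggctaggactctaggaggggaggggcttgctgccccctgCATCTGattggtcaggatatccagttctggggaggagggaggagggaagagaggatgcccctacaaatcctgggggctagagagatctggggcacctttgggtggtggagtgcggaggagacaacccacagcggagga
Atp2a1 has 1 E-box, starting at -55 from the gene's start, and Tnnc2 has E-boxes at -183 and -88. An E-box on either strand was found in 65.5% of the 58 promoters available for the 80 genes and in 69% of 17409 promoters of the genes in the table. The MEF2 motif, of another family of muscle regulators, was found in 0 of the 58 and in 2.87% of all.

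The other 4 genes of this group act on calcium signals or the cytoskeleton outside the fast sarcomere. Capn11, a calpain or calcium-dependent protease, was at 0 in the 4 vehicle libraries and measured 0.195, 0.189, 0.159 and 0.143 FPKM in DAPA libraries 1 to 4. Set against a floor of 3 reads over the vehicle group, the 53 DAPA reads of Capn11 were 17.7-fold higher. The lower limit of its counting interval was a ratio of 13.9. Sphkap, an anchoring protein of protein kinase A, measured 0, 0.00504, 0.0054 and 0.0102 FPKM in vehicle and 0.198, 0.267, 0.17 and 0.187 FPKM in DAPA libraries. These 4 DAPA values each stood far above the highest vehicle value, and the ratio was 39.7 from 4 reads against 159. Ryr3, a ryanodine receptor that releases calcium from internal stores, measured 0.0889, 0.10, 0.0851 and 0.0925 FPKM in vehicle and 0.164, 0.217, 0.204 and 0.223 FPKM in DAPA libraries, with a small spread in both groups and a ratio of 2.2. Cracd, which restrains the capping of actin filaments, measured 0.0998, 0.13, 0.0845 and 0.114 FPKM in vehicle and 0.247, 0.224, 0.272 and 0.577 FPKM in DAPA libraries. DAPA 4 stood above the other 3 DAPA libraries for Cracd, and the ratio was 3.08.

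**Figure D5:**
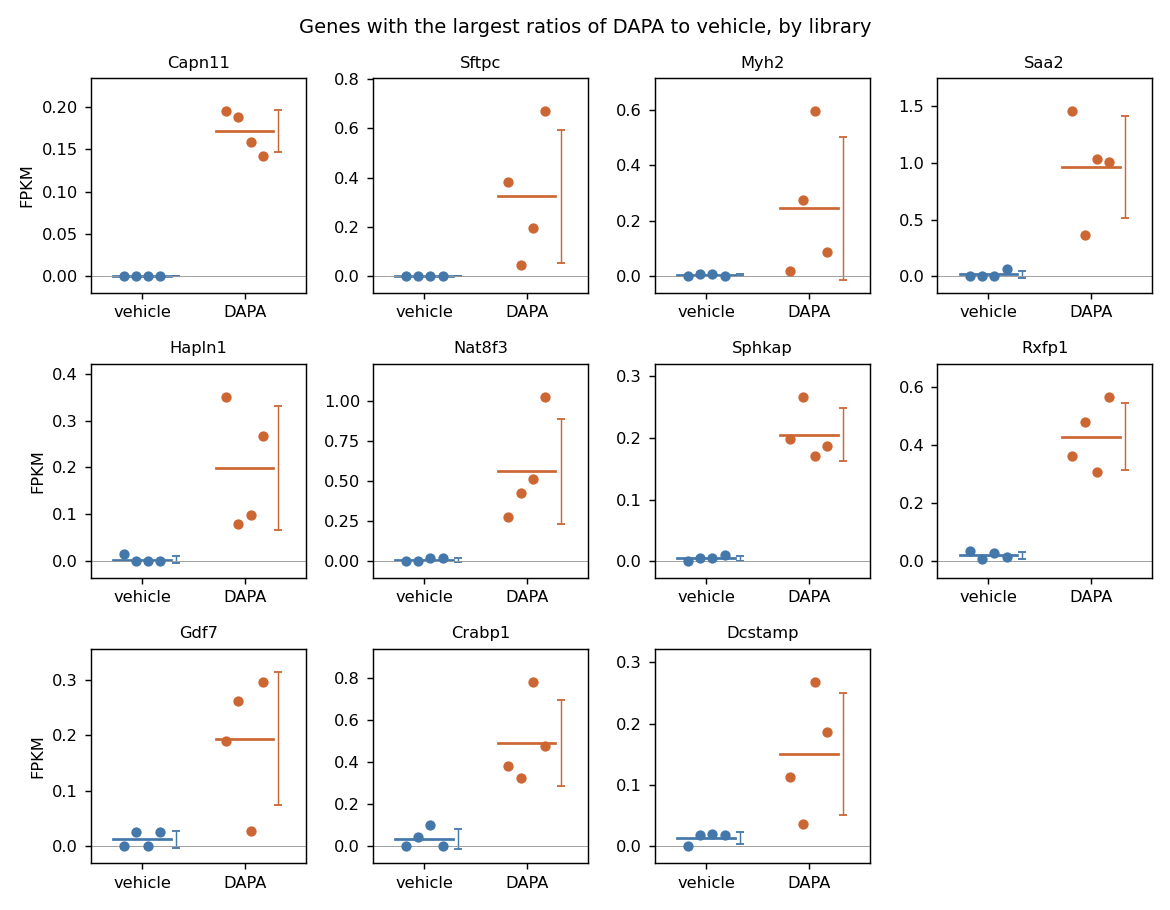
FPKM (y axis, linear, own scale in each panel) in each vehicle (blue) and DAPA (orange) library for 11 of the 12 genes with the largest ratio of means; points are libraries 1 to 4 from left to right, horizontal lines the means and error bars 1 SD (n = 4). Vehicle points lie at or near 0 in each panel, and DAPA points of Capn11 lie close together while those of Myh2, Sftpc and Gdf7 are spread.

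Plasma proteins made in the liver during inflammation include the serum amyloid A proteins Saa1 and Saa2, which circulate with high-density lipoprotein. Saa2 measured 0, 0, 0 and 0.0622 FPKM in vehicle libraries 1 to 4 and 1.46, 0.368, 1.03 and 1.01 FPKM in DAPA libraries 1 to 4, 1 read against 61. Saa1 measured 0.187, 0.145, 0 and 0 FPKM in vehicle and 0.599, 0.326, 0.497 and 0.299 FPKM in DAPA libraries, 9 reads against 46. DAPA 1 was the highest library for both genes, and Saa2 had its only vehicle read in vehicle 4. The ratio was 62.1 for Saa2, with a counting interval of 10.5 to 2449, and 5.19 for Saa1. Without vehicle 1 the ratio of Saa1 was 8.91, and without vehicle 4 Saa2 had no vehicle read. Because these genes are near-identical copies, how reads were divided between them is uncertain.

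Saa1 and Saa2 stand next to each other on chromosome 7, on opposite strands, and their promoters are shown because the genes are neighbours with like sequences. In RefSeq's build GRCm38.p6 the window of Saa1 is chr7:46742931-46743230 on the minus strand and that of Saa2 is chr7:46751583-46751882 on the plus strand. Capitals mark the C/EBP motif, TTGCNNAA, and the nuclear receptor motif AGGTCA, here on the other strand as TGACCT.
Saa1: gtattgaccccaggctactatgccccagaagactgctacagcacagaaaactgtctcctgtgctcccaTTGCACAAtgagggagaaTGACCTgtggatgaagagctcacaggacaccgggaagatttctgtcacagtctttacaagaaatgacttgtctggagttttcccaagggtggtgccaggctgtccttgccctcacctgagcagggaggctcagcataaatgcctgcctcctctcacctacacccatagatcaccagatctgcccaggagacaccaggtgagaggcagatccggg
Saa2: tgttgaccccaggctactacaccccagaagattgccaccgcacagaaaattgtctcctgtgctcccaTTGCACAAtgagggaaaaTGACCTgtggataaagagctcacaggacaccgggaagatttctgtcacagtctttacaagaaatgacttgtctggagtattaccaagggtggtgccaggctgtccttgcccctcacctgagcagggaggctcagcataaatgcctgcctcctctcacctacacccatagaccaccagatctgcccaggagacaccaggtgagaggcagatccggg
The windows are identical at 287 of 301 aligned positions (95.3%). C/EBP factors are regulators of acute phase genes in liver, and their motif starts at -182 in Saa1 and at -183 in Saa2. The C/EBP motif on either strand was found in 10.3% of the 58 promoters and in 10.2% of all 17409, and AGGTCA in 19% and 14.6%. The NF-kB motif was found in 0 of the 58 and in 0.132% of all.

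Further motifs were counted over the same promoters on both strands. The E-box CACGTG, a form of CANNTG bound by the clock factor that Arntl encodes, was found in 9 of the 58 promoters (15.5%) and in 7.77% of all. TATAAA was found in 13.8% and 13.3%, the GC box GGGCGG in 55.2% and 46%, the T-box motif AGGTGT in 15.5% and 12.9%, and the GATA motif AGATAA in 6.9% and 9.87%. The cyclic AMP response element TGACGTCA was found in 3.45% and 2.22%, the CArG box in 1.72% and 1.51%, and the D-box TTATGTAA in 0% and 0.913%. These shares are a description, and no factor's binding was measured.

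Among the metabolic genes, Nat8f3, of a family of N-acetyltransferases, measured 0, 0, 0.0218 and 0.0206 FPKM in vehicle libraries 1 to 4 and 0.273, 0.427, 0.514 and 1.02 FPKM in DAPA libraries 1 to 4. Crabp1, which binds retinoic acid in the cytosol, measured 0, 0.0465, 0.0998 and 0 FPKM in vehicle and 0.384, 0.326, 0.785 and 0.479 FPKM in DAPA libraries. DAPA 4 was the highest library for Nat8f3 and DAPA 3 for Crabp1, with ratios of 52.7 and 13.5 from 2 and 3 vehicle reads. Their counting intervals were 14.5 to 448 and 4.36 to 69.0. Without vehicle 3 these ratios were 81.3 and 31.8. Nat8f3 stands in a cluster of related genes, so its reads may be shared with copies.

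A2m and Pzp, a related pair of plasma proteins that trap proteases, were both among the 80. A2m measured 0.0238, 0.0866, 0.0682 and 0.0529 FPKM in vehicle and 0.328, 0.272, 0.353 and 0.286 FPKM in DAPA libraries, with little spread among the DAPA libraries and a ratio of 5.35. Adh6b, an alcohol dehydrogenase, measured 0.13, 0.211, 0.106 and 0.10 FPKM in vehicle and 0.901, 0.366, 0.712 and 0.55 FPKM in DAPA libraries, highest in DAPA 1 and lowest in DAPA 2 of its group. Aass, which starts the breakdown of lysine, measured 0.29, 0.131, 0.205 and 0.143 FPKM in vehicle and 0.437, 0.383, 0.383 and 0.581 FPKM in DAPA libraries, and its ratio of 2.32 was among the lower ones. The other 4 genes of this group, Mup14, a major urinary protein, Pbld1, Pzp and Saa1, had vehicle means of 0.0307 to 0.156 FPKM and DAPA means of 0.159 to 0.430 FPKM. Without vehicle 4 the ratio of Mup14 moved from 5.15 to 9.46 and that of Pzp from 5.16 to 8.20. Mup14, of a large family of near-identical genes, had 3 reads in both vehicle 4 and DAPA 3.

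Epithelial and glandular genes made up 13 of the 80. Sftpc, the surfactant protein of lung alveoli, was at 0 in the 4 vehicle libraries and measured 0.383, 0.0464, 0.196 and 0.669 FPKM in DAPA libraries 1 to 4, which are 8, 1, 4 and 14 reads. Set against a floor of 3 reads over the vehicle group, the DAPA reads of Sftpc were 9.0-fold higher. The lower limit of its counting interval was a ratio of 6.83. DAPA 4 was the highest library and DAPA 2 the lowest. Of the other genes of the lung epithelium list, Sftpd, Scgb3a2 and Nkx2-1 were at 0 in all 8 libraries. Sftpa1 and Sftpb were at 0 in vehicle and at most 0.0139 and 0.0491 FPKM in DAPA libraries. Lamp3 reached 0.0227 FPKM in vehicle and 0.106 FPKM in DAPA libraries, with means of 0.00866 and 0.0351 FPKM. Scgb1a1 had means of 0.0199 and 0.0206 FPKM, and Foxj1 of 0.0221 and 0.0264 FPKM. All of these were too weak to be tested. The 10 genes of the lung list, Sftpc among them, summed to 0.314 to 0.831 FPKM in vehicle and to 0.709 to 1.21 FPKM in DAPA libraries, and those ranges overlapped. Ager, a receptor abundant on flat alveolar cells, made up most of the vehicle sum. It measured 0.565 ± 0.201 FPKM (SD, n = 4) in vehicle and 0.518 ± 0.126 FPKM in DAPA libraries and was not called (limma-trend adjusted p = 0.888). The part of lung RNA in the value of Sftpc was not tested.

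Genes of fat cells, none of them among the 80, mostly fell. Of 12 tested genes of the adipocyte list, 0 were called higher and 9 lower, against 6.73% lower among all genes tested. The list summed to 1812 to 2024 FPKM in vehicle and to 1360 to 1413 FPKM in DAPA libraries, which did not overlap. Fabp4 made up most of both sums, with means of 1361 FPKM in vehicle and 1102 FPKM in DAPA libraries. Cfd, the adipokine adipsin, had a mean of 211 FPKM in vehicle and 37.3 FPKM in DAPA libraries (log2 change -2.53, limma-trend adjusted p = 1.88e-06), and Adipoq, which encodes adiponectin, 12.7 and 3.46 FPKM. In the higher direction, 0 of the 12 had an unadjusted p below 0.05 and 0 were called by limma voom. Ucp1, the uncoupling protein of brown fat, was too weak to be tested, at means of 0.00576 FPKM in vehicle and 0.0704 FPKM in DAPA libraries, and was called higher where no filter on low values was applied.

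Sytl2, which tethers secretory vesicles through Rab27, measured 0.157, 0.104, 0.112 and 0.116 FPKM in vehicle libraries 1 to 4 and 0.433, 0.503, 0.625 and 0.492 FPKM in DAPA libraries 1 to 4. Rab11fip1, a partner of Rab11 in membrane recycling, measured 0.161, 0.0802, 0.105 and 0.145 FPKM in vehicle and 0.451, 0.285, 0.395 and 0.422 FPKM in DAPA libraries. Both had over 100 vehicle reads, and their ratios were 4.2 and 3.16. Misp, which positions the mitotic spindle and sits at the actin cortex, measured 0.416, 0.313, 0.321 and 0.331 FPKM in vehicle and 0.821, 0.743, 0.701 and 0.778 FPKM in DAPA libraries with a ratio of 2.2. Tg, thyroglobulin, the precursor of thyroid hormone, measured 0.0909, 0.0838, 0.156 and 0.233 FPKM in vehicle and 0.351, 0.234, 0.424 and 0.336 FPKM in DAPA libraries. For Tg the highest vehicle library, vehicle 4, came within 0.000697 FPKM of the lowest DAPA library, DAPA 2, the closest approach of the groups among the 80. Tg overlaps Sla, a gene at 1.34 FPKM in vehicle and 0.707 FPKM in DAPA libraries, and the labels do not state whether counting used strand.

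The other 8 epithelial genes had vehicle means of 0.0321 to 0.203 FPKM, DAPA means of 0.189 to 0.514 FPKM and ratios of 2.38 to 6.26. They were Ocln, a protein of tight junctions, Vil1, the actin bundler of microvilli, Lor, a protein of the skin's cornified layer, Duoxa2, which matures a hydrogen peroxide-forming oxidase, the serine protease Tmprss5, the protease inhibitor Serpinb9b, Wfdc2, of the whey acidic protein family, and the clathrin adaptor Ap1s3. Duoxa2, the highest ratio of the 8, rested on 6 vehicle reads, and without vehicle 3 its ratio of 6.26 became 29.9. Without vehicle 3 Tmprss5 moved from 5.9 to 10.6, and without vehicle 4 Wfdc2 moved from 4.66 to 10.2.

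Matrix and adhesion genes numbered 9, and 3 of them act on hyaluronan or its proteoglycan partners. Hapln1, the link protein that ties proteoglycans to hyaluronan and is known in the endocardium and valves of the developing heart, measured 0.0149, 0, 0 and 0 FPKM in vehicle libraries 1 to 4 and 0.351, 0.0796, 0.0992 and 0.268 FPKM in DAPA libraries 1 to 4. DAPA 1 and 4 were high and DAPA 2 and 3 low within the group, and the ratio of 53.6 came from 2 reads, both in vehicle 1, against 107, with a counting interval of 14.5 to 448. Without vehicle 1, Hapln1 had no vehicle read. Has1, a hyaluronan synthase, had means of 0.175 ± 0.0952 and 0.618 ± 0.192 FPKM in vehicle and DAPA libraries (SD, n = 4 each), a ratio of 3.53. Adamts4, a protease that cuts the proteoglycan aggrecan, measured 0.195, 0.248, 0.139 and 0.204 FPKM in vehicle and 0.611, 0.313, 0.486 and 0.444 FPKM in DAPA libraries, highest in DAPA 1. Adamts4 is among the genes that overlap another gene.

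Of 7 other tested genes of an endocardial list to which Hapln1 belongs, 5 were called higher and 0 lower, also by limma voom. Nfatc1 and Tmem100 were not called. The list summed to 104 to 111 FPKM in vehicle and to 152 to 179 FPKM in DAPA libraries. Of 12 tested genes of a general endothelium list, which shares Vwf with it, 9 were called higher and 2 lower. Of all genes tested, 7.78% were called higher and 6.73% lower. The part of endocardial RNA in the value of Hapln1 was not tested. Hapln1 and Edil3, which binds integrins on endothelial cells, are neighbours on chromosome 13 and the only adjacent pair among the 80 besides Saa1 and Saa2. Edil3 had means of 0.059 ± 0.0101 and 0.165 ± 0.0739 FPKM in vehicle and DAPA libraries and was highest in DAPA 4, whereas Hapln1 was highest in DAPA 1.

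Clec3a, a lectin known from cartilage, measured 0.275, 0.127, 0.178 and 0.181 FPKM in vehicle libraries 1 to 4 and 1.24, 1.06, 0.805 and 0.708 FPKM in DAPA libraries 1 to 4. Its DAPA mean of 0.952 FPKM was the highest of the matrix genes, and its ratio was 5.0. Lamc3, a laminin chain of basement membranes, measured 0.109, 0.044, 0.0425 and 0.107 FPKM in vehicle and 0.255, 0.18, 0.209 and 0.186 FPKM in DAPA libraries. Vehicle 1 and 4 were high and vehicle 2 and 3 low for Lamc3, and the ratio was 2.74. The other 5 genes, Cdcp3, Coch, a matrix protein of the inner ear, Edil3, Has1 and Lrrc15, a membrane protein of activated fibroblasts, had vehicle means of 0.0191 to 0.175 FPKM and DAPA means of 0.153 to 0.618 FPKM. Their ratios ran from 2.43 for Lrrc15 to 8.88 for Coch.

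Transcription and chromatin genes numbered 9. Arntl, which encodes the clock activator BMAL1, had the most reads of the 80 and measured 0.147, 0.228, 0.193 and 0.224 FPKM in vehicle libraries 1 to 4 and 0.79, 0.643, 0.759 and 0.67 FPKM in DAPA libraries 1 to 4. The DAPA libraries lay within 0.643 and 0.790 FPKM and vehicle 1 was the lowest of the vehicle group, with a ratio of 3.61. Sall1, a zinc finger repressor of organ development, measured 0.0794, 0.218, 0.124 and 0.216 FPKM in vehicle and 0.77, 0.566, 0.671 and 0.569 FPKM in DAPA libraries with a ratio of 4.04. Zfp418, another zinc finger protein, measured 0.156, 0.304, 0.0593 and 0.309 FPKM in vehicle and 0.457, 0.456, 0.626 and 0.427 FPKM in DAPA libraries. DAPA 3 was the highest library for Zfp418 and vehicle 3 the lowest, and the ratio was 2.37.

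Foxd3, a forkhead factor of the neural crest, measured 0.162, 0.0786, 0.0843 and 0.192 FPKM in vehicle libraries 1 to 4 and 0.374, 0.267, 0.381 and 0.437 FPKM in DAPA libraries 1 to 4 with a ratio of 2.83. Gata3, a zinc finger factor of T cells and of several epithelia, measured 0.11, 0.0486, 0.104 and 0.0989 FPKM in vehicle and 0.482, 0.136, 0.144 and 0.23 FPKM in DAPA libraries. DAPA 1 stood above the other 3 DAPA libraries for Gata3, and its ratio was 2.74.

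Among all genes tested, 7.78% were called higher and 6.73% lower. Of 12 tested T-box, GATA and HAND factors other than Gata3, 3 were called higher (Tbx5, Tbx20 and Gata4) and 0 lower. Tbx5 also stands in the atrial list. Of 14 other tested Schwann cell genes, the list that holds Foxd3, 4 were called higher and 0 lower, and the summed list overlapped between groups, with 95.8 to 98.1 FPKM in vehicle and 93.3 to 105 FPKM in DAPA libraries. With Foxd3 the list had 5 calls, and without vehicle 2, DAPA 1 or DAPA 2 it had 3. No gene of the Schwann list had an unadjusted p below 0.05 in the lower direction, nor a lower call by limma voom, and 1 gene of the T-box, GATA and HAND list had both.

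H3c14, a replication-dependent histone H3 gene, measured 0.231, 0.561, 0.301 and 0.514 FPKM in vehicle libraries 1 to 4 and 1.22, 0.899, 1.18 and 0.578 FPKM in DAPA libraries 1 to 4. DAPA 4 was low within its group, 0.578 FPKM against a highest vehicle value of 0.561 FPKM, and the ratio was 2.41. Copies of the histone genes are near-identical and their transcripts lack a poly(A) tail, which the library kit selects, so this value is uncertain. Fosb, a partner of Jun in AP-1, and Tceal7, of a family related to elongation factor TFIIS, had the lowest ratios of the group, 2.06 and 2.12.

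Nerve and synapse genes formed the largest group of this sorting by function, with 14 of the 80. The deposited annotation gave the synapse for only 3 of 79 annotated genes. Ppp1r1b, or DARPP-32, a phosphatase inhibitor of dopamine-responsive neurons, measured 0.272, 0.0882, 0.189 and 0.143 FPKM in vehicle libraries 1 to 4 and 1.24, 0.723, 0.819 and 1.07 FPKM in DAPA libraries 1 to 4. Adcy1, a calmodulin-stimulated adenylate cyclase, measured 0.20, 0.139, 0.091 and 0.0646 FPKM in vehicle and 0.473, 0.576, 0.412 and 0.433 FPKM in DAPA libraries. Both genes make or relay cyclic AMP signals, and their ratios were 5.56 and 3.83, with Ppp1r1b highest in DAPA 1 and Adcy1 in DAPA 2. Gpr37l1, a G protein-coupled receptor of glia, measured 0.256, 0.199, 0.107 and 0.236 FPKM in vehicle and 1.08, 0.662, 0.733 and 0.358 FPKM in DAPA libraries. DAPA 1 was high and DAPA 4 low for Gpr37l1, and the ratio was 3.56.

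Diras2, a Ras-like GTPase of brain, measured 0.205, 0.16, 0.163 and 0.211 FPKM in vehicle libraries 1 to 4 and 0.808, 0.734, 0.614 and 0.583 FPKM in DAPA libraries 1 to 4. Gprin3, a G protein effector of neurons, measured 0.091, 0.0758, 0.0651 and 0.0899 FPKM in vehicle and 0.245, 0.154, 0.163 and 0.198 FPKM in DAPA libraries. The vehicle libraries of both genes lay close together, and the ratios were 3.71 and 2.36. Cpne5, a calcium-dependent membrane-binding protein, measured 0.053, 0.0579, 0.0691 and 0.0524 FPKM in vehicle and 0.293, 0.277, 0.536 and 0.411 FPKM in DAPA libraries. DAPA 3 and 4 were high for Cpne5, whose ratio of 6.53 was the largest of this group. The other 8 genes had ratios of 2.25 to 3.56: Cacna2d3, a calcium channel subunit, Cnih2, an auxiliary protein of AMPA receptors, Panx2, a pannexin channel, Rab3b and Sh3gl3, of synaptic vesicle cycling, Rgs7, a brake on G protein signals, Slitrk6, a synaptic adhesion protein, and St8sia2, which adds polysialic acid to the adhesion molecule NCAM.

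General nerve and synapse genes were counted beside these 14. For comparison, limma-trend called 7.78% of all genes tested higher and 6.73% lower. Of 17 tested genes of synapses and vesicle release, 0 were called higher and 0 lower by limma-trend, and of 17 tested genes of autonomic neurons 3 were called higher and 2 lower. The synapse list had 2 genes higher and 1 lower at an unadjusted p below 0.05, and 0 in either direction by limma voom. Single libraries moved the autonomic neuron counts: 1 was called higher without vehicle 1 or 4 or DAPA 1, 3 or 4, and 1 lower without vehicle 2, 3 or 4 or DAPA 2, 3 or 4. The autonomic neuron list summed to 71.8 to 80.6 FPKM in vehicle and to 69.4 to 73.8 FPKM in DAPA libraries. Of 15 tested genes of the sinus node and conduction system other than Cpne5, which stands in that list, 9 were called higher and 0 lower. Cacna1d, Gjc1, Irx3, Shox2, Smoc2 and Tbx3 were not called, and Isl1 was too weak to be tested. The list summed to 96.1 to 99.1 FPKM in vehicle and 105 to 111 FPKM in DAPA libraries. Smoc2 made up most of both sums, with means of 55.8 FPKM in vehicle and 57.9 FPKM in DAPA libraries. With Cpne5 the list had 10 calls, and without vehicle 2 or 4, or without DAPA 2, 3 or 4, it had 6. In the lower direction it had 0 genes at an unadjusted p below 0.05 and 0 by limma voom. The part of conduction system RNA in the value of Cpne5 was not tested.

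Growth factors, receptors and lipid mediators numbered 13. Rxfp1, the receptor of the hormone relaxin, measured 0.0341, 0.00662, 0.0284 and 0.0135 FPKM in vehicle libraries 1 to 4 and 0.363, 0.477, 0.307 and 0.566 FPKM in DAPA libraries 1 to 4. The ratio of Rxfp1 was 20.7, from 12 vehicle and 252 DAPA reads, with a counting interval of 11.8 to 41.2. Erbb4, a receptor of neuregulins in heart muscle, measured 0.129, 0.165, 0.194 and 0.17 FPKM in vehicle and 0.465, 0.283, 0.291 and 0.285 FPKM in DAPA libraries. DAPA 1 stood above the other 3 DAPA libraries, which were nearly equal, and the ratio of 2.01 was the lowest of the 80.

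Epha7, a receptor of ephrins that guides cells by contact, measured 0.289, 0.301, 0.356 and 0.353 FPKM in vehicle libraries 1 to 4 and 0.649, 0.851, 0.739 and 0.524 FPKM in DAPA libraries 1 to 4. Tgfa, a ligand of the epidermal growth factor receptor, measured 0.251, 0.394, 0.389 and 0.192 FPKM in vehicle and 0.822, 0.693, 0.498 and 0.486 FPKM in DAPA libraries. Both had ratios near the limit of 2, 2.13 and 2.04, and many reads for this set, and DAPA 1 and 2 were the high libraries for Tgfa. Gdf7, a ligand of the BMP family, measured 0, 0.0262, 0 and 0.0266 FPKM in vehicle and 0.19, 0.262, 0.0276 and 0.297 FPKM in DAPA libraries. DAPA 3 held 1 read of Gdf7, as did vehicle 2 and vehicle 4, so that DAPA 3 stood above these libraries through the library totals alone. Dcstamp, a membrane protein needed for the fusion of osteoclasts, measured 0, 0.0182, 0.0195 and 0.0185 FPKM in vehicle and 0.113, 0.0363, 0.268 and 0.187 FPKM in DAPA libraries, with DAPA 2 low and DAPA 3 high. Their ratios of 14.7 and 10.8 rested on 2 and 3 vehicle reads, with counting intervals of 3.67 to 125 and 3.34 to 54.5, and without vehicle 4 that of Gdf7 was 22.2.

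The other 7 genes of this group had vehicle means of 0.0376 to 0.172 FPKM, DAPA means of 0.192 to 0.432 FPKM and ratios of 2.28 to 7.84. Alox8, a lipoxygenase, and Ltb4r2, a low-affinity receptor of leukotriene B4, both of the eicosanoid pathway, had ratios of 7.84 and 7.73, and the phospholipase Pla2g2c had 2.28. Dkk2 and Sostdc1, secreted antagonists of WNT and, for Sostdc1, BMP signals, had ratios of 3.6 and 5.13. Without vehicle 3 the ratio of Sostdc1 was 20.1. The ephrin receptor Epha3 and the binding protein relative Igfbpl1 had ratios of 2.52 and 2.75.

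Of the 5 remaining genes, Stk32b, a kinase with few known substrates, had the highest DAPA mean of the 80, 0.980 FPKM. Stk32b measured 0.625, 0.238, 0.419 and 0.419 FPKM in vehicle libraries 1 to 4 and 0.93, 0.672, 1.29 and 1.03 FPKM in DAPA libraries 1 to 4, with vehicle 1 close to DAPA 2. Rp1, a microtubule protein of photoreceptors, measured 0.0852, 0.0296, 0.0317 and 0.0661 FPKM in vehicle and 0.22, 0.148, 0.209 and 0.119 FPKM in DAPA libraries, and Fam124b measured 0.162, 0.0675, 0.0603 and 0.229 FPKM in vehicle and 0.488, 0.495, 0.273 and 0.44 FPKM in DAPA libraries. The ratios of these genes were 2.31, 3.27 and 3.27. Stk32a, of the same kinase family as Stk32b, and Tcte2 had ratios of 3.35 and 3.26.

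Annotated properties were counted over the 80. The families left out of the 80 by name were kept in the genes compared, which bears on these shares. In the annotation of the deposited table, 25 of 79 annotated genes (31.6%) carried the cellular component extracellular region or extracellular space, against 14.6% of tested genes with a mean in the same range and 9.62% of all tested genes. The nucleus was given for 20.3%, against 28.1% and 37.2%, and the plasma membrane for 34.2%, against 28.2% and 22.8%. The synapse was given for 3 of the 79 (3.80%), against 5.66% and 4.28%. A transcription factor family was given for 7 of the 80 (8.75%), against 8.22% and 6.87%. These shares are a description and were not tested.

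By RefSeq, chromosome 7 held 10 of the 80 genes and chromosome 1 held 9, and the others were spread over the other chromosomes. Another gene of the table overlaps 12 of the 80, in some cases a far more abundant gene, and for these the values depend on how the authors divided overlapping reads. Among these pairs are Atp2a1 and Rabep2, Cacna2d3 and Lrtm1, Cnih2 and Yif1a, Gdf7 and Ldah, Has1 and Spaca6, Igfbpl1 and Stra6l, Ltb4r2 and Cideb, Pla2g2c and Ubxn10, Tcte2 and Afdn, Tg and Sla, and Vil1 and Usp37. Of the 34 genes with another gene of the table within 5 kb or overlapping, 7 had a neighbour called higher and 4 a neighbour called lower. Of 40 such neighbours that were tested and are not among the 80, 8 were called higher and 4 lower, against 7.78% and 6.73% of all genes tested. Myh2, beside Myh1, was 1 of these 7.

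Genes near the limits of the rule show how narrow some choices were. Just inside the lower limit of the DAPA mean were Dcstamp (0.151 FPKM), Lrrc15 (0.153) and Pzp (0.159), and just outside it Tekt4 (0.148), Ptprz1 (0.145) and Fbxl21 (0.139). Just inside the upper limit were Stk32b (0.980), H3c14 (0.970) and Saa2 (0.966), and just outside it Nrg1 (1.04) and Ndnf (1.04). At the limit of the ratio, Erbb4 (2.01), Tgfa (2.04) and Fosb (2.06) were inside and Chl1 (1.99), Adgrg6 (1.95) and D7Ertd443e (1.94) outside. The gap between the lowest DAPA and the highest vehicle value was smallest for Tg (0.000697 FPKM), Gdf7 (0.0010) and Mup14 (0.0041), and H2bc12 (0), Insc (-0.00259) and Vsnl1 (-0.00285) were left out by it.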

How the data were processed

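Per the labels' protocols, RNA was extracted with TRIzol, libraries were made with the TruSeq stranded mRNA kit, and paired reads from an Illumina instrument went through Trimmomatic. The submitters' processing notes list Cufflinks, DESeq, HISAT2, HTSeq, SAMtools and StringTie, without versions or roles. They also name GRCh38, a human build, while the table holds mouse genes, so no coordinates are taken from it. No source states whether counting used strand. The authors deposited FPKM values for each library, with no pooling, and a table with their own ratio of DAPA to vehicle (fold) and q-values.

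Reads were recovered from the FPKM steps (whole, within 0.0001 reads, for all 80 genes) and served for depth, counting intervals (exact Clopper-Pearson, 95%) and a limma voom alternative. Genes with a mean of at least 0.05 FPKM over the 8 libraries were fitted as log2(FPKM + 0.1) by limma-trend, with group as the only term, in version 3.58.1 of limma under R 4.3.3, and p-values were Benjamini-Hochberg adjusted over all genes tested. Fold changes on that scale understate those of low genes, and ratios in the text are of mean FPKM. The fits and the recovery were tested on simulated data. All 80 genes matched RefSeq by gene ID, and promoters, found for 58 of the 80, are RefSeq's on GRCm38.p6. Intervals and floors (3 reads over the group) cover counting error only.

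The 80 genes, their role groups and the marker lists were chosen with earlier results of these data known. Values in each library are given for the 12 largest ratios, the 12 highest DAPA means, genes standing in a marker list and the 3 genes with the most reads in each role group; the others are given as ranges. Alternatives were other pseudocounts, filters, limits of the rule, scaling, voom, a replicate block and leaving out each library. A few genes are not reported here by name.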

Additional observations from a re-analysis of the deposited data

Results flagged for a closer look

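In 11 of the 158 groups of 4 values that could be examined over the 80 genes, a library lay far from the other 3 by Dixon's criterion. For normally distributed values, chance gives about 1 in 20 such groups. That rate need not hold for groups of a few whole reads, as many of these are. In the vehicle group, a single library was high for Cacna2d3 (vehicle 2, 0.225 FPKM against 0.0807 to 0.0946), Dkk2 (vehicle 3, 0.149 against 0.0593 to 0.0713), Ocln (vehicle 3, 0.189 against 0.108 to 0.118), Hapln1 (vehicle 1, 0.0149 against 0) and Saa2 (vehicle 4, 0.0622 against 0). For Hapln1 and Saa2 these are the only vehicle libraries with a read. A single vehicle library was low for Dcstamp (vehicle 1, 0 against 0.0182 to 0.0195 FPKM), Fosb (vehicle 4, 0.0502 against 0.132 to 0.148) and Ltb4r2 (vehicle 1, 0.0222 against 0.0432 to 0.0463). In reads, Dcstamp had 0 in vehicle 1 against 1 in each other vehicle library, and Ltb4r2 had 1 against 2. In the DAPA group, a single library was high for Cracd (DAPA 4, 0.577 FPKM against 0.224 to 0.272), Erbb4 (DAPA 1, 0.465 against 0.283 to 0.291) and Zfp418 (DAPA 3, 0.626 against 0.427 to 0.457). Erbb4, with 840 DAPA reads, and Cracd, with 423, are the deepest of these genes.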

How the results depend on the processing

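The number of genes that meet the rule depends on its limits. It was 80 as given, 52 with a minimum DAPA mean of 0.3 FPKM, 49 with a minimum ratio of 3, 124 with a ratio of 1.5 and 163 with no condition on overlap. Leaving out each library gave 88 to 103 genes, of which 73 to 79 were among the 80. The median log2 ratio of the 80 genes was 1.13 with a pseudocount of 0.1, 1.78 with none and 0.29 with a pseudocount of 1, which shrinks genes below 1 FPKM by construction. The direction of single ratios is fixed by the rule and says nothing of their stability. Over all genes, 1147 were called higher and 992 lower by limma-trend. With the replicate number as a block, 890 were higher and 814 lower, and 55 of the 80 were called. Libraries with the same number did not deviate together (correlations of -0.028 to 0.014). Counting error of weak genes can hide a shared deviation, so this does not settle whether the numbers pair libraries. Leaving out each library gave 855 to 997 higher and 787 to 906 lower calls, and 49 to 57 of the 80. With limma voom on recovered reads, 1506 were higher and 1239 lower, and 65 of the 80 were called. Without any 1 library, the p for the number of genes above 0 was 0.0571, the smallest that design allows. Depth limits these genes: 29 of them had under 100 DAPA reads, and 20 had 0 reads in at least 1 vehicle library.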
